A study of Mus musculus with 8 samples.

Results

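The genes described here make ribosomes: they encode the nucleolar particles, processing factors, assembly factors and RNA polymerase I subunits that turn ribosomal DNA into ribosomal subunits. A list of 45 such genes was matched by symbol to the platform's table of probe sets and genes, and each gene was represented by its probe set with the highest mean signal over the 8 arrays. Of the 45 genes, 40 were found and all 40 passed the filter on low signals, among 7340 genes tested in all. Mrto4 was measured only by a probe set that the annotation gives to several genes, and Dkc1, Utp15, Utp14a and Nob1 were listed for no probe set in that annotation, so these 5 were not analysed here.

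The arrays came from MCE301 cells, a line of mouse colonic epithelium taken from animals whose transgene encodes a large T-antigen of simian virus 40 that is temperature-sensitive. All groups are this 1 line, and all carry the transgene. The cells received sodium butyrate, known as an inhibitor of histone deacetylases and a product of gut bacteria, at 2 mM for 0, 6, 12 or 24 h, and each of the 4 times has 2 arrays. Whether the 2 arrays of a time stand for separate cultures is not stated in the labels. The p-values then reflect the scatter of these arrays alone, which may be technical. Later arrays without butyrate are not among those analysed here, so hours in culture and hours with butyrate cannot be told apart. All 7 epithelial markers (Krt8, Krt18, Krt19, Cdh1, Epcam, Cldn7 and Cldn3) had signals of 1064.5 or more on every array, while the immune, endothelial and fibroblast markers with a probe set were at 124.6 or less on every array. Among intestinal genes, Cdx2 and Krt20 were above the median signal of 144.5 on every array, but Cdx1 and Vil1 were at 40.7 or less.

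Ribosome production starts in the nucleolus, where RNA polymerase I transcribes a long precursor of the ribosomal RNAs. Box C/D particles guide methylation of that precursor, and the U3 particle, a member of the same class, is needed for its cleavage on the way to the small subunit. Box H/ACA particles guide pseudouridylation. Large sets of assembly factors then fold, trim and export the precursors of the 40S and 60S subunits. Many of these genes are known targets of the transcription factor MYC, and the pathway is most active in growing cells.

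The members' promoters were searched for 4 short motifs on both strands, the E-box among them because many genes of the pathway are known MYC targets. Promoter windows of 300 bases around the annotated gene start, from RefSeq on GRCm38.p6, were held for 39 of the 45 listed genes. The E-box CACGTG, which MYC binds, was present on either strand in 9 of the 39 (23.1%), against 12.6% of the 6044 tested genes with a window and 8.09% of all 27025 genes with one. These 9 were Grwd1, Imp4, Nop2, Pes1, Pno1, Tsr1, Utp18, Utp20 and Wdr43. Of the members called lower at 24 h, 6 of 22 with a window held the E-box, and of the other tested members 3 of 12 did. The ETS-type motif CCGGAAG was in 13 of 39 windows (33.3%), against 22.9% of tested genes and 9.93% of all genes. The NRF1-type motif GCATGCG and the YY1-type motif AAGATGG were each in 3 of 39 (7.69%), against 8.24% and 9.10% of tested genes, and 4.01% and 7.28% of all genes. A match describes letters only.

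The windows of 5 members are shown 5′ to 3′ on the gene's strand. Nop56, Grwd1 and Utp20 had the largest falls at 24 h, Nop10 was the member that rose, and Utp18 holds the E-box but was not called. Capitals mark any of the 4 motifs, a match on the other strand being shown as its reverse complement. No capitals appear in the Nop56 and Nop10 windows.
Nop56, GRCm38.p6 chr2:130274162-130274461, plus strand: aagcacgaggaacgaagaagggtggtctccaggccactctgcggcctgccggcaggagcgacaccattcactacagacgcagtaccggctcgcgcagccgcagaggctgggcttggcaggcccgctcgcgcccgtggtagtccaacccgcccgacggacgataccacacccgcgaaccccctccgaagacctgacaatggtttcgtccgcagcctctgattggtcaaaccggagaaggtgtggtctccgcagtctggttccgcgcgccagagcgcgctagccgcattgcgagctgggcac
Grwd1, GRCm38.p6 chr7:45830740-45831039, minus strand: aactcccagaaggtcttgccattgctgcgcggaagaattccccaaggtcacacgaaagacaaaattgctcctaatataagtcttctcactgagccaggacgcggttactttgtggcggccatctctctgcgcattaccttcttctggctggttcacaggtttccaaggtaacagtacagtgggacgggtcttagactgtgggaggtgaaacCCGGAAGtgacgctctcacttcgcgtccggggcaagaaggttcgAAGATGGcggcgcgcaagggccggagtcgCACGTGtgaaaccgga
Utp20, GRCm38.p6 chr10:88826765-88827064, minus strand: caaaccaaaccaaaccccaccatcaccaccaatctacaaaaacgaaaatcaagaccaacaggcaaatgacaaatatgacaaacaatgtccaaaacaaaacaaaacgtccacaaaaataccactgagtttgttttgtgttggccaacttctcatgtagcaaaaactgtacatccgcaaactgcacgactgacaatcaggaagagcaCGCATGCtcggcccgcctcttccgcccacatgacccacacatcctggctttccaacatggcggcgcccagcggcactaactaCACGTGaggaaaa
Nop10, GRCm38.p6 chr2:112261676-112261975, plus strand: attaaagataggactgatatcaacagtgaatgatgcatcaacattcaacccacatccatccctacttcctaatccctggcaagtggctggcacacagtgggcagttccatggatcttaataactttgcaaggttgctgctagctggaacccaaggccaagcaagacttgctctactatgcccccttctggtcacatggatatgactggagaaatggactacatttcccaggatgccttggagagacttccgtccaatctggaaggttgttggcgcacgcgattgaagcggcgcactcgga
Utp18, GRCm38.p6 chr11:93885717-93886016, minus strand: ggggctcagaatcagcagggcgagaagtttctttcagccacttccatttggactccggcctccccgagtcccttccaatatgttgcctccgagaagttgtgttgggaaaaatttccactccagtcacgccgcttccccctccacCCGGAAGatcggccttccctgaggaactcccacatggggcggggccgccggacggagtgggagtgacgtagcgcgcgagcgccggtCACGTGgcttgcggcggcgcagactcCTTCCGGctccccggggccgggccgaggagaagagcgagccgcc
Counted from the 5′ end of the window, the E-box starts at base 285 in Grwd1, base 288 in Utp20 and base 231 in Utp18. Grwd1 also holds CCGGAAG at base 212 and AAGATGG at base 256, and Utp20 holds GCATGCG on the other strand at base 206. Utp18 holds CCGGAAG at base 145 and, on the other strand, at base 257.

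Most of the 40 genes were lower by 24 h, and the number called grew with time. Calls rest on limma, with p-values adjusted over all 7340 genes by Benjamini-Hochberg and a threshold of 0.05. At 6 h, 5 members were called lower (12.5%), against 6.68% of all genes tested. At 12 h, 17 were called lower (42.5%), against 17.5% of all genes, and at 24 h 26 were (65.0%), against 23.5%. The members were chosen with earlier results of these data known, so these shares are no independent test. Of 113 other genes of the pathway, 36.3% were called lower at 24 h. Rises were few: none was called at 6 h or 12 h (2 and 1 at an unadjusted p under 0.05), against 9.06% and 18.1% of all genes called higher, and Nop10 alone was called higher at 24 h, against 24.6% of all genes. The median log2 change of the 40 members was -0.08 at 6 h, -0.47 at 12 h and -0.77 at 24 h, while that of all tested genes was 0.01, 0.03 and 0.04. Log2 changes and the fold changes taken from them are of the signal plus 32, which understates the change of low signals.

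**Figure D1:**
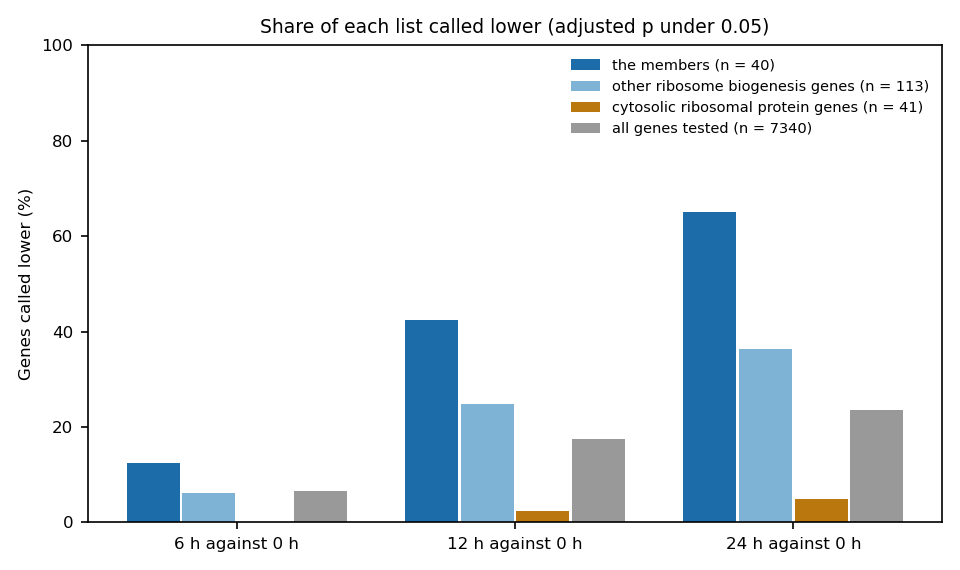
Percent of genes called lower (adjusted p under 0.05, limma) at 6, 12 and 24 h against 0 h, for the 40 members, 113 other ribosome biogenesis genes, 41 cytosolic ribosomal protein genes and all 7340 tested genes. The members' bars stand at 12.5%, 42.5% and 65.0%, above those of all genes at 6.68%, 17.5% and 23.5%. The members and lists were chosen with earlier results of these data known.

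On single arrays the pattern was much the same. Both arrays of the later time were below both 0 h arrays for 15 members at 6 h, 29 at 12 h and 32 at 24 h, against 27.1%, 33.8% and 35.9% of all genes. Both were above for 5, 3 and 3 members, against 30.1%, 36.7% and 39% of all genes, and the 3 at 24 h were Nop10, Polr1c and Noc3l. A called fall of at least 2-fold was found for 1, 8 and 14 members at these times, against 1.63%, 5.3% and 9.54% of all genes. The log2 change was below 0 for 22, 35 and 36 of the 40 members, against 48.6%, 48% and 47.6% of all genes. At 6 h this share, and that of called falls of at least 2-fold, were near those of all genes. The deposited arrays share a common mean signal, so a change in total RNA per cell would not show, and fewer copies per cell cannot be told apart from a change in the mix of cells.

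**Figure D2:**
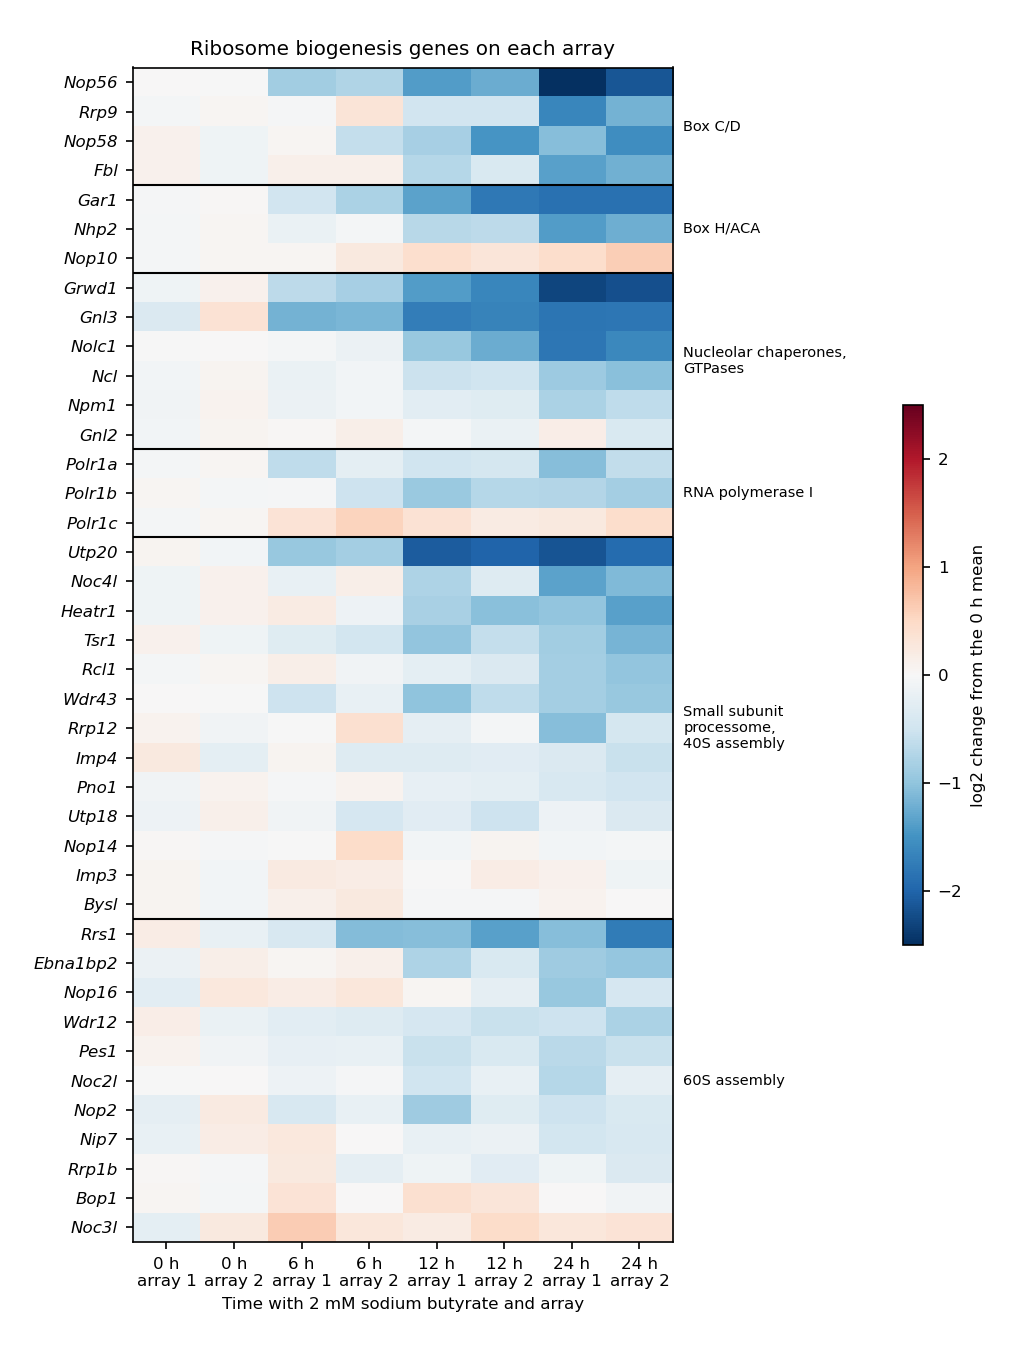
Log2 change of each of the 40 members on each of the 8 arrays from the mean of its 2 arrays at 0 h, in rows grouped by step and columns ordered by time. Blue deepens from 6 h to 24 h in most rows, while Nop10, Polr1c and Noc3l stay pale red.

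The 4 tested genes for box C/D particle proteins were all called lower at 24 h, each by more than 2-fold. A called fall of at least 2-fold was found for 9.54% of all genes at that time. The core protein Nop56 (probe set 1455035_s_at) had signals of 3021 and 2963 at 0 h, 1616 and 1774 at 6 h, 1115 and 1249 at 12 h and 504 and 655 at 24 h. Its groups did not overlap, and its log2 change was -2.32 ± 0.17 at 24 h, the largest fall among the members (± is the standard error of the fit; adjusted p = 6.57e-06). Nop56 had already fallen by 0.81 on the log2 scale at 6 h (adjusted p = 0.0118), a call lost without either 0 h array (0.0666 and 0.0616), without the first 6 h array (0.0616), with no filter (0.0569) and with probe sets averaged (0.0551). Nop58 (1450986_at), its paralog in the particle, had signals of 1734 and 1502 at 0 h, 1671 and 1050.5 at 6 h, 895 and 563 at 12 h and 759.9 and 528 at 24 h. The second 6 h array of Nop58 was already below both 0 h arrays while the first was not, and the log2 change was -1.15 ± 0.27 at 12 h and -1.31 ± 0.27 at 24 h (adjusted p = 0.00893 and 0.00302). The 12 h call of Nop58 was lost without the first 0 h array (0.0626) or the second 12 h array (0.0761).

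Fibrillarin and the U3 protein Rrp9 were first called at 12 h and 24 h. Fbl (1416685_s_at), the methyltransferase of the particle, had signals of 4514 and 3860.4 at 0 h, 4542 and 4566 at 6 h, 2524 and 3181 at 12 h and 1607 and 1790.2 at 24 h, so both 6 h arrays were still above the 0 h arrays. It was 1.47-fold lower at 12 h (adjusted p = 0.0297) and 2.43-fold lower at 24 h (adjusted p = 0.000216). The 12 h call of Fbl was lost without either 0 h array (0.167 and 0.0527), without the first 12 h array (0.196) and with no filter (0.0837). Rrp9 (1451293_at), which binds the U3 RNA, had signals of 532 and 570.5 at 0 h, 542 and 699 at 6 h, 389 and 387 at 12 h and 157 and 224 at 24 h. Its 6 h and 0 h arrays overlapped, and its log2 change was -0.47 ± 0.19 at 12 h (adjusted p = 0.0789, and 0.0351 with the replicate number as a block) and -1.41 ± 0.19 at 24 h (adjusted p = 0.000229).

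Of the box H/ACA particle genes, Gar1 and Nhp2 fell and Nop10 rose. Gar1 (1418305_s_at), a protein needed for the particle's function, had signals of 1388 and 1432 at 0 h, 1000.4 and 799 at 6 h, 541 and 385 at 12 h and 362 and 362 at 24 h, with a log2 change of -1.56 ± 0.19 at 12 h and -1.87 ± 0.19 at 24 h (adjusted p = 0.000257 and 3.56e-05). Gar1 was also called at 6 h (-0.64 ± 0.19, adjusted p = 0.0456), but no longer when any 1 of the 0 h or 6 h arrays was left out (0.0580 to 0.211), with no filter (0.138), with a pseudocount of 16 (0.0537) or with only the 4 arrays compared (0.0527). Nhp2 (1416606_s_at), which binds RNA in the particle, had signals of 5382 and 5695 at 0 h, 4939 and 5341 at 6 h, 3424 and 3524 at 12 h and 2069 and 2358 at 24 h, and was 2.48-fold lower at 24 h (adjusted p = 9.06e-05). Nop10 (1423210_a_at), a small protein that bridges dyskerin and Nhp2, had signals of 6652 and 7149 at 0 h, 7110 and 8189.9 at 6 h, 9194 and 8511 at 12 h and 9376 and 10599 at 24 h. Both 24 h arrays of Nop10 stood above both 0 h arrays, and the log2 change was 0.53 ± 0.16 (95% interval 0.17 to 0.89, adjusted p = 0.0198). That call was lost without either 0 h array, without the second 24 h array and with no filter (0.0537). The change ranged from 0.44 to 0.62 with 1 array left out. A further Nop10 probe set, 1423211_at, had log2 changes of 0.51 at 6 h, 0.59 at 12 h and 0.73 at 24 h. At 12 h Nop10 was at 0.36 on the probe set used (adjusted p = 0.108), and was called higher with probe sets averaged (0.47, adjusted p = 0.0185).

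By 24 h, 5 of 6 nucleolar chaperones and GTPases fell (83.3%, against 23.5% of all genes). Grwd1 (1452171_at), a WD-repeat protein of ribosome assembly, had signals of 663 and 767 at 0 h, 441 and 389.8 at 6 h, 252 and 208 at 12 h and 120.4 and 131 at 24 h. Its groups did not overlap at any later time, and it was 1.67-fold lower at 6 h, 2.85-fold at 12 h and 4.73-fold at 24 h (adjusted p = 0.0156, 0.000148 and 6.57e-06). The 6 h call of Grwd1 was lost without the second 0 h array (0.101), without the second 6 h array (0.0778) and with no filter (0.0662). Gnl3 (1433656_a_at), nucleostemin, had signals of 1349 and 2249 at 0 h, 750.2 and 773 at 6 h, 502 and 523 at 12 h and 471 and 473 at 24 h. The 0 h arrays of Gnl3 differed widely, yet both were above every later array, and the log2 change was -1.16 ± 0.22 at 6 h, -1.70 ± 0.22 at 12 h and -1.82 ± 0.22 at 24 h (adjusted p = 0.00634, 0.000304 and 9.89e-05). Without the first 0 h array the 24 h change was -2.18, and without the second it was -1.45.

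The nucleolar phosphoproteins Nolc1, Ncl and Npm1 also fell. Nolc1 (1428869_at), which binds both particle classes, had signals of 1209 and 1236 at 0 h, 1182 and 1099 at 6 h, 616 and 502 at 12 h and 326 and 377 at 24 h. Both 6 h arrays lay just under the 0 h arrays, and the log2 change was -0.10 at 6 h (adjusted p = 0.75), -1.09 ± 0.17 at 12 h and -1.71 ± 0.17 at 24 h (adjusted p = 0.000814 and 2.83e-05). Nucleolin, Ncl (1415771_at), which acts in precursor transcription and processing, had signals of 5775 and 5292 at 24 h, against 10444 and 11409 at 0 h, and fell 1.97-fold (adjusted p = 0.000515). Nucleophosmin, Npm1 (1432416_a_at), a histone and ribosome chaperone, had signals of 6386 and 7036 at 24 h, against 10407 and 11634 at 0 h, and fell 1.64-fold (adjusted p = 0.00348). Ncl was called at 12 h too (-0.52, adjusted p = 0.0226), but not when any 1 of the 0 h or 12 h arrays was left out (0.0569 to 0.119) nor with no filter (0.0624). Gnl2, a GTPase of 60S assembly, had a log2 change of -0.11 at 24 h (95% interval -0.53 to 0.32, adjusted p = 0.682), and its arrays overlapped with those at 0 h.

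Of the 3 tested RNA polymerase I subunits, the 2 catalytic ones fell by 24 h (66.7%, against 23.5% of all genes). Polr1a (1417775_at), the largest subunit, had signals of 221 and 315 at 24 h, against 483 and 518 at 0 h, a log2 change of -0.84 ± 0.20 (adjusted p = 0.00536, and 0.0519 without the first 24 h array). Polr1b (1416126_at), which completes the catalytic centre, had signals of 316 and 288 at 24 h, against 562 and 528 at 0 h, a change of -0.79 ± 0.19 (adjusted p = 0.00621). Polr1b was already at -0.82 at 12 h (adjusted p = 0.00779), a call lost without the first 0 h array (0.0501) or the first 12 h array (0.0552). Polr1a at 12 h was at -0.47 (adjusted p = 0.0904, and 0.0350 with the replicate block). Polr1c (1449648_s_at), a subunit shared with RNA polymerase III, had signals of 1082 and 1256 at 24 h, against 877 and 947 at 0 h. Those groups did not overlap, with the 24 h arrays higher, but the change of 0.34 did not pass the test (95% interval -0.02 to 0.71, adjusted p = 0.109). A further Polr1c probe set, 1417041_at, had log2 changes of 0.36 at 6 h, 0.33 at 12 h and 0.08 at 24 h.

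In the small subunit processome and 40S assembly, 8 of 13 tested members fell by 24 h (61.5%, against 23.5% of all genes) and the rest were not called. Utp20 (1452252_at), a large scaffold protein of the processome, had signals of 979.6 and 900.4 at 0 h, 474 and 507 at 6 h, 198 and 212 at 12 h and 185 and 224 at 24 h. Every later array was below both 0 h arrays, the 12 h and 24 h arrays overlapped, and its log2 change was -0.90 ± 0.16 at 6 h, -2.04 ± 0.16 at 12 h and -2.04 ± 0.16 at 24 h (adjusted p = 0.00526, 3.03e-05 and 8.57e-06). Its change at 24 h against 12 h was -0.01 (95% interval -0.36 to 0.34). Noc4l, which works with Nop14, had signals of 522 and 614 at 24 h, against 1265 and 1463 at 0 h, a change of -1.22 ± 0.20 (adjusted p = 0.000766). Heatr1, the mouse counterpart of yeast UTP10, had signals of 349 and 263 at 24 h, against 664 and 783 at 0 h, a change of -1.17 ± 0.19 (adjusted p = 0.000769). Both had no overlap between these times. Tsr1, a GTPase-like factor of late 40S assembly, fell by 1.01 on the log2 scale, Rcl1, known from yeast for a role in cleaving the precursor, by 0.92, and Wdr43, a processome subunit, by 0.89 (adjusted p = 0.00159, 0.00101 and 0.00268).

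Smaller falls and flat members completed the group. Rrp12, known from yeast for subunit export, fell by 0.75 on the log2 scale at 24 h (adjusted p = 0.0197), a call lost without the first 0 h array (0.111), without the first 24 h array (0.169, at a change of -0.44) and with no filter (0.0653). Pno1, a late 40S factor, fell by 0.44 (adjusted p = 0.0346), a call lost when any 1 of the 0 h or 24 h arrays was left out (0.0581 to 0.172), with no filter (0.0788) and with only the 4 arrays compared (0.0525). Of the U3-associated pair, Imp4 was at -0.47 (95% interval -0.92 to -0.01, adjusted p = 0.0851). It was called with the replicate block (0.0350) or without the second 0 h array, but was at -0.15 with probe sets averaged (adjusted p = 0.542). The change of Imp4 ranged from -0.71 to -0.22 with 1 array left out, while Imp3 was at 0.00 (95% interval -0.36 to 0.35). Imp3 had signals of 1239 and 1064 at 24 h, against 1210.1 and 1096 at 0 h, which overlap. The other members not called were Utp18 (-0.25, 95% interval -0.66 to 0.17), Nop14 (-0.06, -0.46 to 0.34) and Bysl, a late 40S factor (0.05, -0.28 to 0.39).

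Among 11 tested members of 60S assembly, 5 fell by 24 h (45.5%, against 23.5% of all genes). Rrs1 (1416998_at), known from yeast for bringing the 5S ribonucleoprotein into the precursor, had signals of 1637 and 1272 at 0 h, 1085 and 662 at 6 h, 673 and 544 at 12 h and 678 and 409.8 at 24 h. Both 6 h arrays lay below both 0 h arrays at a log2 change of -0.74 (adjusted p = 0.0983, and 0.0109 with the replicate block), which ranged from -1.09 to -0.40 with 1 array left out. The change was -1.21 ± 0.28 at 12 h and -1.40 ± 0.28 at 24 h (adjusted p = 0.00725 and 0.00217). The 12 h call of Rrs1 was lost without the first 0 h array (0.0609) or the second 12 h array (0.0503). Ebna1bp2, a partner of Rrs1 in yeast, had signals of 341 and 319.7 at 24 h, against 593 and 724 at 0 h, a fall of 1.9-fold without overlap (adjusted p = 0.00212). Nop16 fell by 0.68 on the log2 scale (adjusted p = 0.03), a call lost without the second 0 h array (0.229, at a change of -0.42), the first 24 h array (0.218, at -0.43) and with no filter (0.0877).

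The PeBoW complex, which is required for maturation of the 60S precursor, showed 2 members lower and 1 not. Pes1 had signals of 724 and 790.2 at 24 h, against 1252 and 1105 at 0 h, and fell 1.53-fold (adjusted p = 0.0084, but 0.0627 without the first 0 h array and 0.0535 without the first 24 h array). Wdr12 had signals of 660.1 and 543 at 24 h, against 1083 and 847 at 0 h, and fell 1.57-fold (adjusted p = 0.0119, but 0.102 without the first 0 h array and 0.0874 without the second 24 h array). Bop1 had signals of 1298 and 1210.3 at 24 h, against 1341 and 1252 at 0 h, which overlap, at a log2 change of -0.05 (95% interval -0.41 to 0.32, adjusted p = 0.84). The other 60S members not called at 24 h were Noc2l (-0.47, adjusted p = 0.0678), the RNA methyltransferase Nop2 (-0.45, 0.129), Nip7 (-0.43, 0.0666), Rrp1b (-0.23, 0.34) and Noc3l (0.31, 0.236). Of these, Noc2l and Nop2 were called lower with the replicate block (0.0280 and 0.0349), Noc2l without the second 24 h array (0.0256), Nip7 without the first 0 h array (0.0405), and Rrp1b when its probe sets were averaged (0.0144). With 1 array left out, the change ranged from -0.71 to -0.23 for Noc2l, -0.68 to -0.21 for Nop2, -0.61 to -0.24 for Nip7, -0.36 to -0.11 for Rrp1b and 0.07 to 0.55 for Noc3l. With its probe sets averaged, however, Nip7 was at -0.01 (adjusted p = 0.963).

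**Figure D3:**
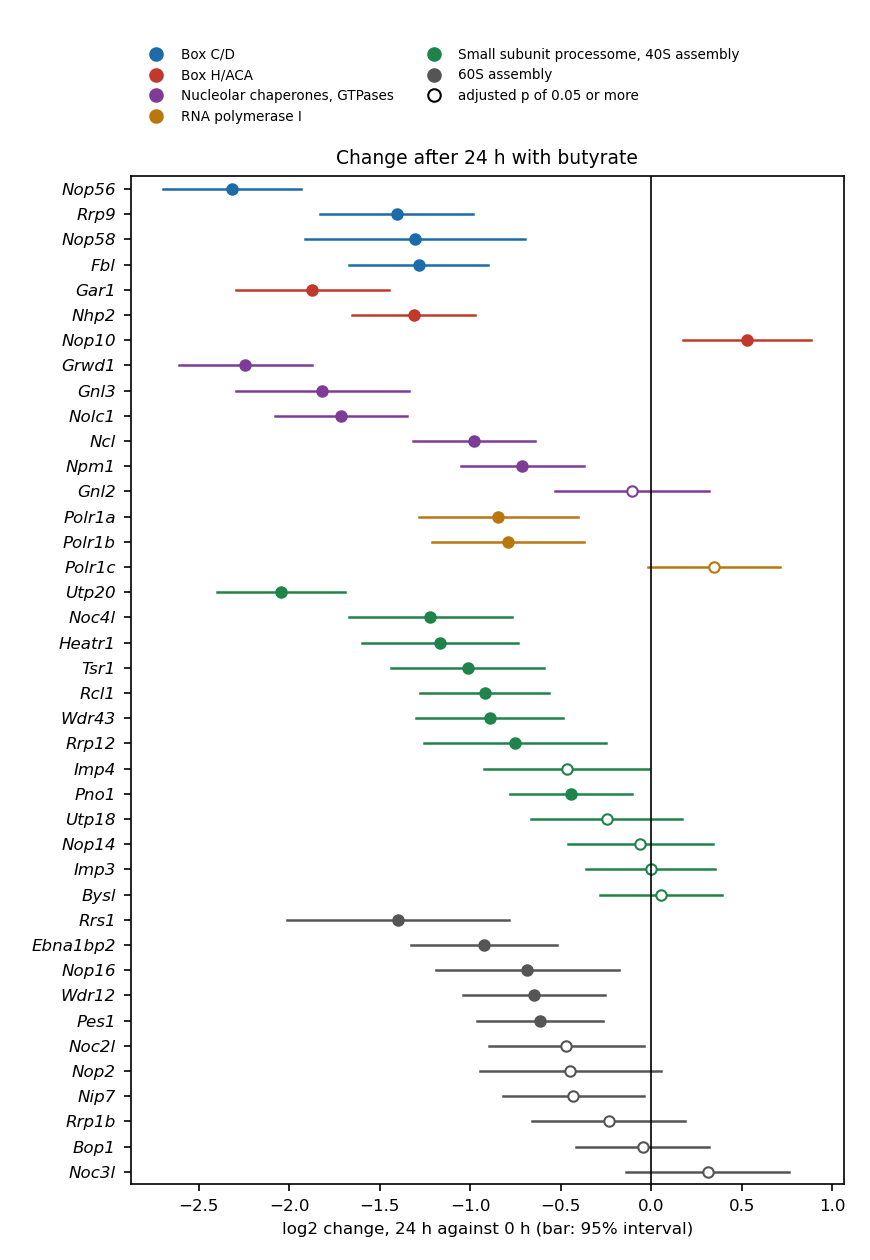
Log2 change at 24 h against 0 h for each of the 40 members, coloured by step, with the 95% interval of the limma fit as a bar and open circles for members with an adjusted p of 0.05 or more. Filled circles lie left of 0 for 26 members, from -0.44 for Pno1 to -2.32 for Nop56, and right of 0 for Nop10 at 0.53.

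The members differed in the time at which they were first called lower. Of the 26 called lower at 24 h, 5 were first called at 6 h (Nop56, Gar1, Gnl3, Grwd1 and Utp20), 12 at 12 h and 9 at 24 h, and every member called at an earlier time was called again later. The 12 h log2 change amounted to 62.8% of the 24 h change in the median of these 26, from 13.1% for Nop16 to 103% for Polr1b. Utp20, Gnl3 and Wdr43 had reached 99.6%, 93.9% and 92.1% of their 24 h change by 12 h. Rrp12, Rcl1 and Rrp9 had reached 18.0%, 33.0% and 33.6%. These shares describe fitted changes that use the same 0 h arrays, and they were not tested against each other. The time of the first call depends on the spread as well as the change. At 6 h Rrs1 was at -0.74 and not called, while Gar1 was at -0.64 and called. Of the 5 calls at 6 h, 2 held under every alternative (Gnl3 and Utp20).

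Tests between neighbouring times called some members in each step. Between 6 h and 12 h, 5 members fell, against 2.14% of all genes called lower: Utp20 (-1.14 ± 0.16, adjusted p = 0.00866), Nolc1 (-0.99 ± 0.17), Heatr1 (-0.97 ± 0.19), Gar1 (-0.92 ± 0.19) and Grwd1 (-0.77 ± 0.17). Heatr1, for example, had signals of 396 and 335 at 12 h, against 836 and 661 at 6 h. Between 12 h and 24 h, 5 members fell, against 3.58% of all genes: Nop56 (-0.998 ± 0.17, adjusted p = 0.00851), Rrp9 (-0.93 ± 0.19), Fbl (-0.73 ± 0.17), Grwd1 (-0.73 ± 0.17) and Nhp2 (-0.65 ± 0.15). Of those, 4 encode proteins of the box C/D or H/ACA particles, and the fall of Grwd1 was called in both steps. The 4 particle genes were also lower at 12 h than at 6 h, though not called. Their log2 changes there were -0.51 for Nop56, -0.63 for Rrp9, -0.68 for Fbl and -0.56 for Nhp2 (adjusted p = 0.0554 to 0.130). A call in 1 step alone therefore does not place a gene's fall in that step. Called falls of at least 2-fold numbered 1 and 0 in these steps, against 0.409% and 1.65% of all genes. Both later arrays were below both earlier ones for 29 members in the first step and 21 in the second (25.5% and 24.6% of all genes), and above for 1 and 2 (23.7% and 24.9%). The log2 change was below 0 for 38 and 33 members (50.4% and 48.7% of all genes).

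Those step calls depended on single arrays. Between 6 h and 12 h, 1 member was called with any 1 of the 4 arrays left out, which was Nolc1 without the first 12 h array and Utp20 without each of the other three. Between 12 h and 24 h, Nop56 was called without the first 12 h array, Nop56 and Rrp9 without the second 24 h array, and none without the second 12 h or the first 24 h array (9 and 8 at an unadjusted p under 0.05 in limma). With the replicate block 11 and 8 members were called. No member was called higher in either step, nor was any at an unadjusted p under 0.05 in limma, against 2.03% and 1.81% of all genes called higher (149 and 133 genes, or 24 to 56 and 26 to 66 with 1 array left out).

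**Figure D4:**
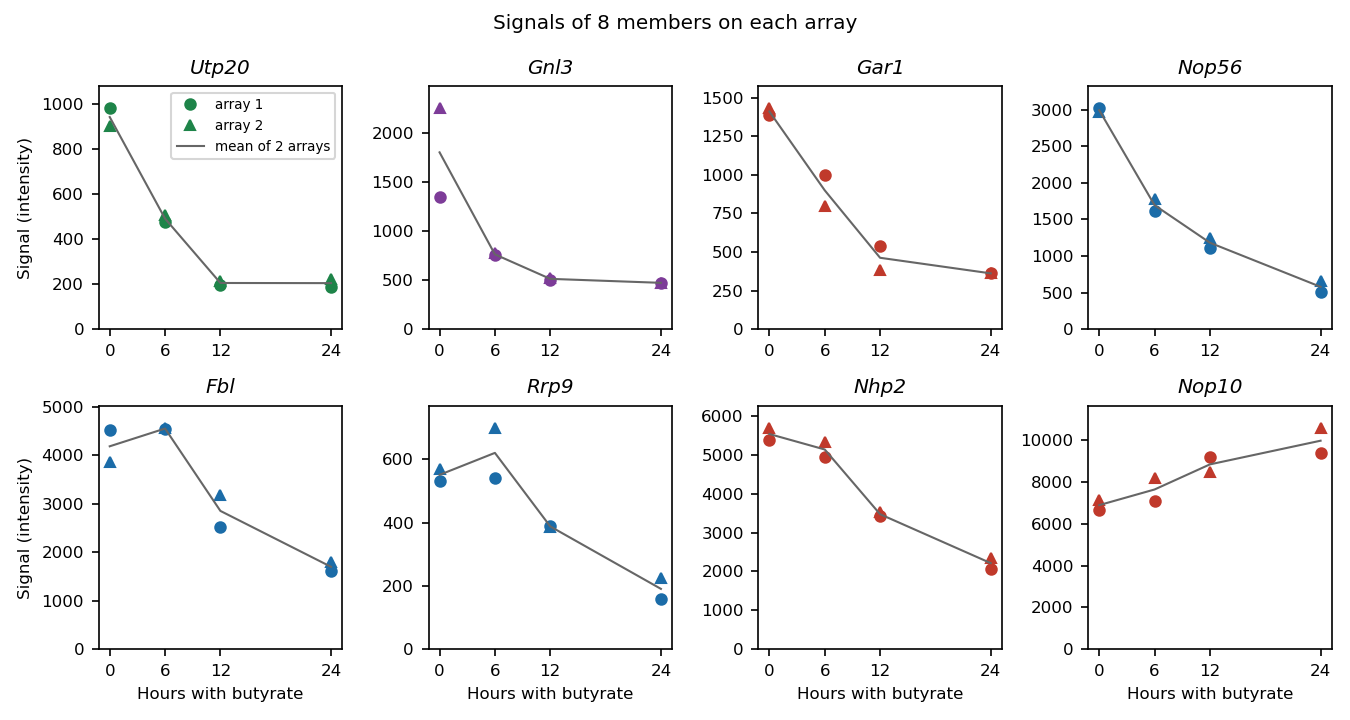
Signal (linear intensity) of 8 members against hours with butyrate, 1 point per array (circle and triangle for arrays 1 and 2) and a line through the mean of the 2 arrays. Utp20, Gnl3 and Gar1 drop between 0 h and 12 h, Fbl, Rrp9 and Nhp2 drop between 6 h and 24 h, and Nop10 climbs.

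Other probe sets of the called members had changes of the same sign. The 40 members had 24 other probe sets that passed the filter, in 18 genes. Of the 17 that belong to members called at 24 h, 17 had a change of the same sign. Ncl, for example, was at -1.54, -1.01 and -0.68 on its other 3 probe sets, against -0.98 on the one used. Among members not called, the other probe set of Nip7 was at 0.41 and that of Imp4 at 0.17, opposite in sign to the -0.43 and -0.47 of those used. The other probe sets of Rrp1b were at -0.61 and -0.59, against -0.23.

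A further 113 genes of ribosome biogenesis were tested from a list of the pathway. At 24 h, 41 of them fell (36.3%) and 6 rose (5.31%), against 23.5% and 24.6% of all genes, and their median log2 change was -0.36, against 0.04. At 12 h, 28 fell (24.8%) and 4 rose (3.54%), against 17.5% and 18.1% of all genes. At 6 h, 7 fell (6.19%) and 5 rose (4.42%), against 6.68% and 9.06%, so the share that fell was near that of all genes. The largest falls at 24 h were those of Rrp15, a 60S factor (216 and 178 at 24 h, against 829.6 and 840.5 at 0 h; log2 change -1.92, adjusted p = 1.15e-05), the nucleolar MYB-binding protein Mybbp1a (-1.76), the exosome subunit Exosc2 (-1.53) and the processome subunit Pwp2 (-1.45). Las1l, which takes part in cleaving the spacer between the large subunit RNAs, had the largest rise (1373 and 1549.7 at 24 h, against 618 and 649.7 at 0 h; log2 change 1.16, adjusted p = 0.000216). It was followed by the kinase Riok3 (0.70), the GTPase Efl1 (0.65) and the exosome subunit Exosc4 (0.60). Efl1 was not called without the first 0 h array (0.0594) or the first 24 h array (0.0618), nor Exosc4 without the second 0 h array (0.0730) or the second 24 h array (0.0650).

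Of 41 tested genes for cytosolic ribosomal proteins, 0 were called lower at 6 h by limma (1 at an unadjusted p under 0.05), 1 at 12 h (2.44%) and 2 at 24 h (4.88%), against 6.68%, 17.5% and 23.5% of all genes. None was called higher at 6, 12 or 24 h (0 at an unadjusted p under 0.05 at each time), against 9.06%, 18.1% and 24.6% of all genes, and their median log2 change at 24 h was 0.09. The difference from the assembly genes was not tested. Myc, whose protein binds the E-box, had signals of 1077 and 1134 at 0 h, 599.5 and 396.8 at 6 h, 431.4 and 468.4 at 12 h and 512.1 and 505.9 at 24 h. Every later Myc array was below both 0 h arrays, with log2 changes of -1.13 at 6 h, -1.24 at 12 h and -1.07 at 24 h (adjusted p = 0.00438, 0.000942 and 0.00123). Between neighbouring times its changes of -0.11 (12 h against 6 h) and 0.17 (24 h against 12 h) were not called (adjusted p = 0.800 and 0.701). Its part in the members' falls was not tested.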

How the data were processed

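Total RNA of 8 samples was measured on Affymetrix 430A mouse arrays, per the labels and the series design. The authors deposited 1 linear intensity (signal) per probe set and array for 22690 probe sets, and no source used here gives the software that summarised them. The 2% trimmed mean was 500.2 on every array, so the deposited intensities had been scaled, and they were used as deposited. There are no detection calls, and the number of arrays, 2 per time, limits the precision.

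Control probe sets (64) were left out. Probe sets were named from the platform annotation when it gave 1 gene (20380; 691 had several and 1555 were not listed). Probe sets with 2 or more arrays above the median signal of 144.5 were kept, and each gene was represented by its probe set with the highest mean. Log2(signal + 32) was fitted over all 8 arrays with lmFit and eBayes in limma 3.58.1 (R 4.3.3), and p-values were adjusted by Benjamini-Hochberg over 7340 genes for each comparison. The residual df was 4 and the prior df 6.37. The script was tested on simulated data.

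All 40 members are named. The rule for fuller values was the 8 called members with the largest change at each time, every member called higher, every member not called at 24 h, the 4 other pathway genes with the largest change in each direction at 24 h, and Myc. Values of the remaining called members were added after they were seen, to account for every member. The members and lists were chosen with earlier results of these data known. Older symbols of the other pathway genes were matched through RefSeq (GRCm38.p6). Replicate numbers were taken to pair the arrays, since the differences between array 1 and array 2 correlated over genes at r = 0.125 to 0.382 in all 6 pairs of times (the labels do not state a pairing), and the fit with the number as a block was an alternative. The 2 arrays of a time correlated at 0.979 to 0.982 over probe sets. Alternatives were other pseudocounts, filters, scaling, probe set choices, fits and left-out arrays.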

Additional observations from a re-analysis of the deposited data

How the results depend on the processing

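The counts of members called lower at 24 h (21 to 25 with 1 array left out, 23 to 29 otherwise) and at 12 h with all arrays (13 to 22) stayed within 1.5 times their values of 26 and 17. With 1 array left out, the 12 h count was 10 to 15, the lowest without the first 0 h or the first 12 h array, and the 6 h count of 5 became 2 to 3. Between 6 h and 12 h it was 1 for each array left out, and between 12 h and 24 h it was 0 to 2. With no filter the counts were 2 at 6 h, 0 between 6 h and 12 h and 0 between 12 h and 24 h (15 and 12 at an unadjusted p under 0.05), when 158, 1 and 88 of all genes were called lower. With only the 4 arrays compared they were 1 and 2 for the 2 neighbouring steps. The replicate block gave 11 and 8 for those steps (314 and 377 of all genes), and averaging probe sets gave 8 for the later one. In comparisons with 0 h, the block changed the call of no other member than those given with it, apart from Noc4l (0.0108), Wdr12 (0.0197) and Nop2 (0.0141) at 12 h. Of the 27 calls at 24 h, 20 held under every alternative run for them, and of the 17 at 12 h, 8 did. At 12 h the call of Pes1 was lost when any 1 of the 0 h or 12 h arrays was left out. It was also lost with no filter and with only the 4 arrays compared. The 12 h calls of Ebna1bp2, Tsr1 and Wdr43 were lost without at least 1 array, that of Wdr43 only without the first 12 h array. That of Ebna1bp2 was also lost with no filter, and its change was -0.37 without the first 12 h array, against -0.57 with all arrays. Over all genes, the 490 lower and 665 higher calls at 6 h became 160 to 286 and 299 to 403 with 1 array left out, and the 1281 and 1332 at 12 h became 779 to 895 and 879 to 939. The 157 and 263 lower calls of the neighbouring steps became 13 to 17 and 77 to 143, and the 149 and 133 higher calls became 24 to 56 and 26 to 66. Noc4l and Wdr12, not called at 12 h, were called with a pseudocount of 64 and under the stricter filter (which left 38 members). They were also called with probe sets averaged and with trend and robust eBayes. Leaving out the second 12 h array gave a call for Noc4l and Nop2, and leaving out the second 0 h array for Wdr12. Further lower calls at 12 h came with trend and robust eBayes (Nop2), probe sets averaged (Npm1 and Polr1a) or only the 4 arrays compared (Rrp9).

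Signs turned only for changes that were not called. Quantile normalization turned Rrp1b at 6 h (-0.00767), Nop14 at 12 h (0.013) and Imp3 at 24 h (0.0302), and averaging probe sets turned Nolc1 (0.0529) and Rrp1b (-0.13) at 6 h. With 1 array left out, log2 changes that crossed 0 ranged as follows. At 6 h they were Nop58 -0.60 to 0.0488, Rrp9 -0.0226 to 0.33, Nop14 -0.00174 to 0.45, Noc4l -0.19 to 0.15, Rrp12 -0.0185 to 0.40, Imp4 -0.37 to 0.12, Heatr1 -0.12 to 0.20, Rcl1 -0.0879 to 0.14, Pno1 -0.0531 to 0.12, Nop16 -0.0312 to 0.51, Rrp1b -0.23 to 0.24, Ebna1bp2 -0.0525 to 0.22, Nip7 -0.0435 to 0.33. At 12 h they were Nop14 -0.0743 to 0.0732, Bysl -0.11 to 0.042, Imp3 -0.00491 to 0.18, Nop16 -0.36 to 0.18, Nip7 -0.36 to 0.0154. At 24 h they were Gnl2 -0.37 to 0.16, Bysl -0.0208 to 0.13, Imp3 -0.11 to 0.10, Bop1 -0.0959 to 0.00298. Where not shown by the alternative's own construction (fewer arrays or more genes tested), the cause was not tested.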
